A study of Mus musculus with 10 samples.

Results

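Olfml3, Jag1, Furin, Map2k3, Pde7b, Gpr162, Sesn1, Sdc1, Tgm2 and Dmpk are 10 genes whose signal differed between bead-stimulated and unstimulated TLR9 knockout macrophages. They were chosen from that difference on these same arrays, out of 19938 genes measured, so the knockout bead values below describe the choice and carry no test. All 10 were found, each on 1 probe set annotated to that gene alone. In a linear model over the whole table (limma, Benjamini-Hochberg adjustment, adjusted p under 0.05), 0% of genes passed for the knockout bead response. The smallest adjusted p was 0.514, and 359 genes had an unadjusted p under 0.05. Without wild-type bead array 12, described below, 17 genes (0.0853%) passed. Neither count is a test of the 10. As they were chosen on this difference, the name bead-responsive stands for a ranking on 4 arrays. The genes are called by their symbols here.

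The arrays came from 4 groups of immortalized mouse macrophages. The knockout line is labelled TLR9KO, for a knockout of Toll-like receptor 9, the endosomal receptor for unmethylated CpG DNA. It had 2 arrays with β-1,3 glucan beads and 2 unstimulated arrays. The other line is wild-type B6, with 3 bead arrays and 3 unstimulated arrays. Beads, at 20 per cell for 4 h, are the only treatment named, and both lines were immortalized. How the TLR9 gene was disrupted, how the cells were immortalized, and whether each line is 1 clone is not stated in the labels. Only 1 line of each genotype was used, so genotype and line cannot be told apart. Knockout arrays also carry lower numbers in their titles than wild-type arrays, and an order of handling, if the numbers mean one, cannot be told apart from the line either. Within each line the bead arrays carry lower numbers than the unstimulated arrays. Such an order therefore cannot be told apart from the beads either. Separate cultures are not stated for the arrays of a group, so that the spread behind each p-value is that between arrays and may be technical. In bulk RNA, fewer cells of a type and less RNA per cell cannot be told apart.

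Particles of β-glucan, a sugar polymer of fungal cell walls, are bound on macrophages by Dectin-1, which signals through the kinase Syk and the adaptor Card9 to NF-kappaB and MAP kinases. The 10 genes have varied roles. Map2k3 encodes a kinase that phosphorylates the stress kinase p38, Jag1 a membrane-bound ligand of Notch receptors, Furin a protease of the secretory pathway that matures many precursor proteins, and Pde7b an enzyme that degrades cyclic AMP. Sesn1 encodes a sestrin, a stress protein induced by p53 that restrains the growth regulator mTORC1. Sdc1 is a heparan sulfate proteoglycan of the cell surface, Tgm2 an enzyme that cross-links proteins, Olfml3 a secreted glycoprotein with an olfactomedin domain, Gpr162 an orphan G protein-coupled receptor, and Dmpk a serine/threonine kinase known from myotonic dystrophy in humans.

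All values are log2 signals, and differences are given in log2 units and, for larger ones, as folds. The median over all probe sets was 5.84 to 5.97 on the knockout bead arrays and 5.86 to 5.95 on the knockout arrays without beads, and the median change over all genes was 0.00 in that comparison. Across genes, the closest array to each knockout array was one from the opposite treatment of the same line. Wild-type bead array 12, numbered so in its title, stood apart. Its mean Pearson correlation across genes with the other arrays of its group was 0.973, against 0.985 to 0.997 for the other 9 arrays within their groups, and its SD over genes was the smallest, at 1.75 against 1.86 to 2.00. The main results that involve it are given with and without it. Of 10 macrophage markers, 9 lay above the median gene on every array, among them Adgre1, Csf1r, Cd68, Lyz2 and Spi1, and Mertk, which was below it on both knockout bead arrays, did not. No marker of granulocytes, dendritic cells, T cells, B cells or NK cells did so, nor did the stromal Pdgfra, Dcn and Lum or the epithelial Epcam and Cdh1, whereas Col1a1, Col1a2, Col3a1, Krt8 and Krt18 did. Tlr9 itself read 7.35 and 7.31 on the knockout bead arrays and 7.44 and 7.62 on the unstimulated knockout arrays, against 7.03, 7.21 and 7.44 on the wild-type bead arrays and 7.32, 6.91 and 7.25 on the unstimulated wild-type arrays. Its probe set was not lower in the knockout line. The line difference averaged over treatments was 0.23 ± 0.11 (SE, limma adjusted p = 0.243) and passed without array 12 (0.29 ± 0.09, adjusted p = 0.0398). Its position relative to the disruption is unknown here, so it does not check the labels. For Clec7a, which encodes Dectin-1, the line difference was -0.48 ± 0.16 (adjusted p = 0.0926) with all arrays, and without array 12 it passed, at -0.60 ± 0.09 (adjusted p = 4.93e-04).

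**Figure D1:**
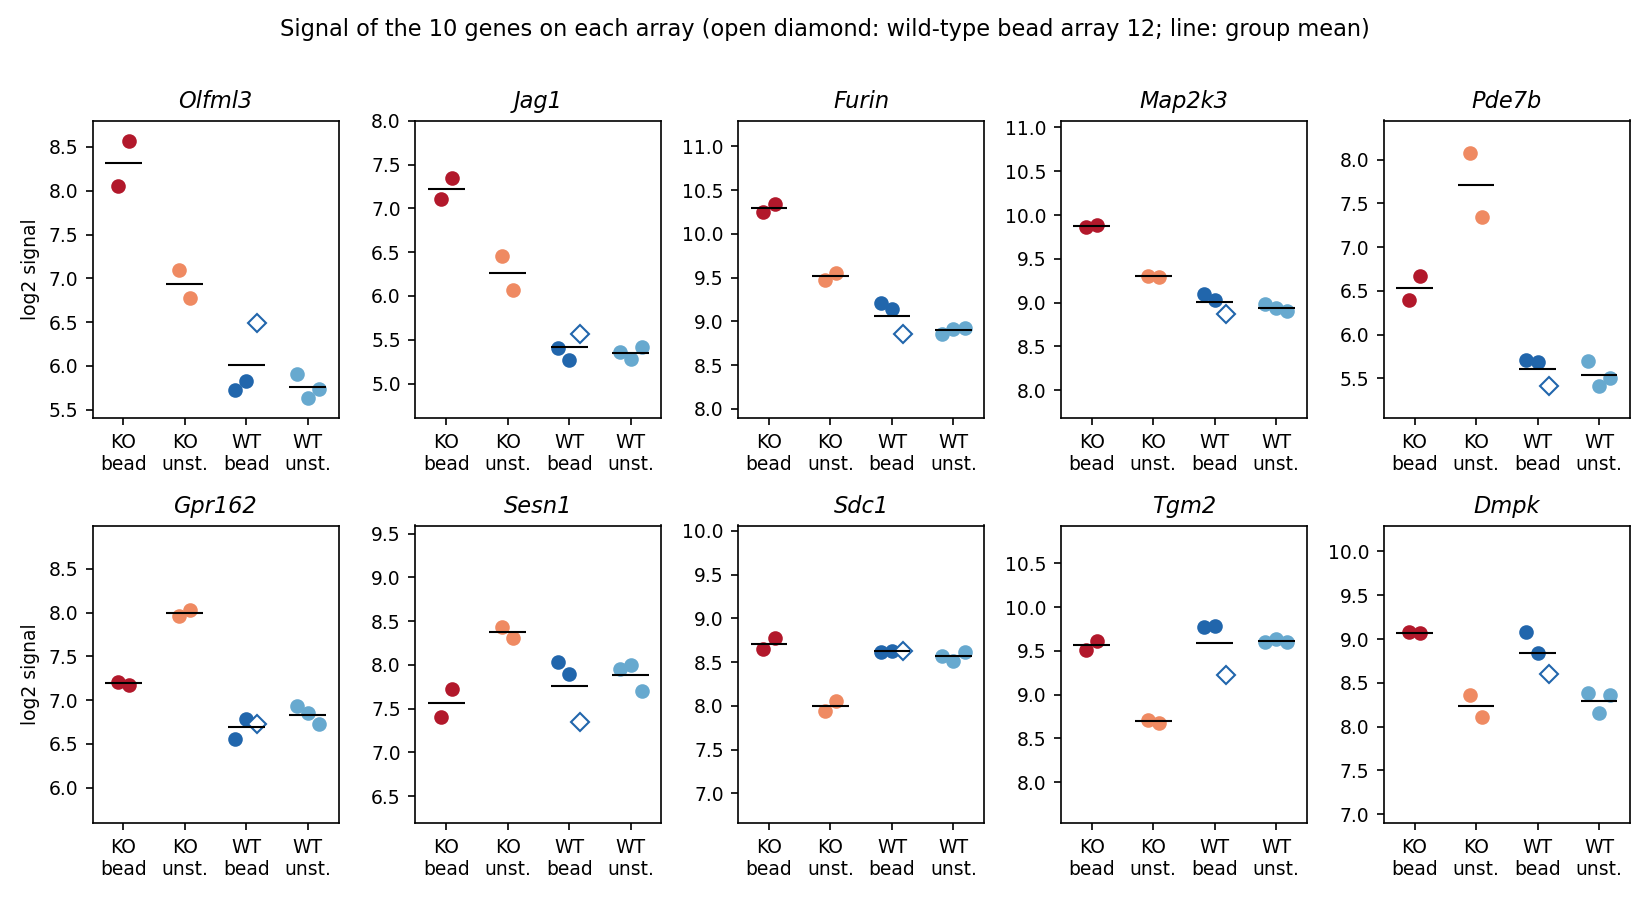
Log2 signal (vertical axis) of each gene on each array by group (horizontal axis, KO for TLR9 knockout, WT for wild type, unst. for unstimulated). Points are single arrays, lines are group means, the open diamond is wild-type bead array 12, and every panel spans the same number of log2 units. In the panels of Olfml3, Jag1, Furin and Map2k3 the knockout bead arrays lie highest, in those of Pde7b, Gpr162 and Sesn1 the unstimulated knockout arrays do, and in those of Sdc1 and Tgm2 the unstimulated knockout arrays lie lowest.

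The genes fell into several patterns in the plot of signal by group. Olfml3, Jag1, Furin and Map2k3 were higher in the knockout line and higher still with beads. Pde7b, Gpr162 and Sesn1 were highest in the unstimulated knockout line. Sdc1 and Tgm2 were lowest there. Dmpk was higher with beads in both lines, with the largest wild-type difference of the 10. The knockout bead arrays did not overlap the unstimulated knockout arrays for any of the 10 genes, 7 above and 3 below, where 13.2% of all genes lay above and 11.2% below without overlap. The choice of the genes fixed that count.

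Olfml3 had the largest positive bead difference of any gene in the knockout line. It read 8.06 and 8.57 on the knockout bead arrays, against 7.09 and 6.77 on the unstimulated knockout arrays, a 2.60-fold higher signal (log2 1.38 ± 0.26, SE of the fit, 2 arrays each). On the wild-type bead arrays it read 5.73 and 5.83 and, on array 12, 6.49, against 5.91, 5.64 and 5.73 on the unstimulated wild-type arrays. The knockout groups were thus apart from each other and above all wild-type arrays, while the wild-type bead and unstimulated arrays overlapped. Jag1 had the next largest. Its signal was 7.10 and 7.34 on the knockout bead arrays, against 6.46 and 6.07 on the unstimulated knockout arrays (1.95-fold, log2 0.96 ± 0.16). Wild-type bead arrays read 5.40, 5.26 and, on array 12, 5.57, and the unstimulated wild-type arrays read 5.36, 5.28 and 5.41. Here again the knockout groups were apart and the wild-type groups overlapped. Over all 10 arrays Jag1 lay between percentile 34.7 and 66.7 of the genes on its array, and Olfml3 between percentile 43.1 and 83.3.

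Olfml3 and Jag1 were also each among the 3 genes whose log2 signal most resembled the other's over the 10 arrays (Pearson r = 0.986). The 250 bases before their annotated RefSeq starts (build GRCm38.p6) are printed because these genes had such like values, and those of Pde7b because it had the largest negative difference. The Olfml3 window is at chr3:103738002-103738251, minus strand, Jag1 at chr2:137116521-137116770, minus strand, and that of Pde7b at chr10:20548329-20548578, minus strand. The Pde7b window lies inside the span of the gene (chr10:20397052-20725078), before an internal start, while the other windows lie next to the end of their gene. Capitals mark a match to TGGGAA, the core letters bound by RBPJ, the DNA-binding partner of Notch.

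Olfml3: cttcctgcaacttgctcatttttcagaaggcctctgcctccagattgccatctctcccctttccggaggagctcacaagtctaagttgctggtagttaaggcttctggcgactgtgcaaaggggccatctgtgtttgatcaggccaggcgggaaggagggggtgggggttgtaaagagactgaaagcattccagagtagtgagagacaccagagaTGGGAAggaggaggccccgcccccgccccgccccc

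Jag1: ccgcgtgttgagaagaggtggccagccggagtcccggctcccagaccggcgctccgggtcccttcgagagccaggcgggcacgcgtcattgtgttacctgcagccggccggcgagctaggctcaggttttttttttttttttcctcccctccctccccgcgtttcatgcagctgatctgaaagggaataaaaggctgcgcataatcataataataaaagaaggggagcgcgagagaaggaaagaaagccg

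Pde7b: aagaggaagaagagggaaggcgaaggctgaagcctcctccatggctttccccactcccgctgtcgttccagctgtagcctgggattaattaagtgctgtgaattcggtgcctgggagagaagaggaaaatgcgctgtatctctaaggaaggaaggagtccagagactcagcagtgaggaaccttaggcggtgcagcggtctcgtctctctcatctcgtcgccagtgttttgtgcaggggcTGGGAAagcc

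Promoters of 8 of the 10 genes were in the RefSeq table, with 10 start sites in all. Gpr162 and Tgm2 had no entry. Searching both strands for TGANTCA (AP-1), TGACGTCA (CRE), CACGTG (E-box), TGGGAA (RBPJ) and GGGACTTTC (NF-kappaB) found matches to TGGGAA alone. They lay 35 to 30 bases before the start in Olfml3, 10 to 5 before the internal start of Pde7b, and at both starts of Sesn1. Of all 32851 promoters, 21.6% hold TGGGAA in this window, 6.75% TGANTCA, 6.02% CACGTG, 1.55% TGACGTCA and 0.289% GGGACTTTC. A match is a run of letters and shows no binding, and in Jag1, Furin, Map2k3, Sdc1 and Dmpk these letters are not in this window.

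Furin and Map2k3 followed the same order of groups at a higher signal, between percentile 86.6 and 96.8 of the genes on their arrays. Furin, the convertase, read 10.25 and 10.34 on the knockout bead arrays, against 9.47 and 9.56 on the unstimulated knockout arrays (1.72-fold, log2 0.78 ± 0.13). In the wild-type line the bead arrays read 9.20, 9.14 and, on array 12, 8.86, against 8.85, 8.92 and 8.92 on the unstimulated wild-type arrays. Wild-type bead and unstimulated arrays overlapped only through array 12. Map2k3, the p38-activating kinase, read 9.86 and 9.89 on the knockout bead arrays, against 9.30 on each unstimulated knockout array (1.49-fold, log2 0.58 ± 0.10). It had the smallest difference of the 10 genes, with an SD of 0.02 and 0.00 within the knockout groups. With beads, the wild-type arrays read 9.10, 9.03 and, on array 12, 8.87, against 8.98, 8.94 and 8.90 on the unstimulated wild-type arrays. Here, too, array 12 alone made the wild-type groups overlap.

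Pde7b, the cyclic AMP phosphodiesterase, had the largest negative bead difference of any gene in the knockout line. It read 6.39 and 6.67 on the knockout bead arrays, against 8.08 and 7.34 on the unstimulated knockout arrays, a signal 2.26-fold lower with beads (log2 -1.18 ± 0.23). The unstimulated knockout arrays differed from each other by more than in any other of the 10 genes (SD 0.52), and the difference was -0.81 without the first of them and -1.55 without the second. In the wild type, bead arrays read 5.72, 5.68 and, on array 12, 5.41, and the unstimulated wild-type arrays 5.70, 5.42 and 5.51, all below every knockout array.

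Gpr162, the orphan receptor, read 7.21 and 7.17 on the knockout bead arrays, against 7.96 and 8.03 on the unstimulated knockout arrays (1.75-fold lower, log2 -0.81 ± 0.11). Wild-type bead arrays read 6.56, 6.78 and, on array 12, 6.73, against 6.93, 6.85 and 6.72 on the unstimulated wild-type arrays. All 4 knockout arrays were again above the wild-type arrays, so that with beads both Gpr162 and Pde7b lay closer to wild type without reaching it. Sesn1, the sestrin, read 7.40 and 7.72 on the knockout bead arrays, against 8.44 and 8.31 on the unstimulated knockout arrays (1.75-fold lower, log2 -0.81 ± 0.22). In the wild-type line the bead arrays read 8.03, 7.89 and, on array 12, 7.35, against 7.95, 7.997 and 7.70 on the unstimulated wild-type arrays. The unstimulated knockout arrays were above every wild-type array, and the knockout bead arrays overlapped them.

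Sdc1 and Tgm2 showed the reverse arrangement. Sdc1, the syndecan, read 8.65 and 8.78 on the knockout bead arrays, against 7.95 and 8.05 on the unstimulated knockout arrays (1.64-fold, log2 0.71 ± 0.10). With beads, the wild-type arrays read 8.62, 8.62 and, on array 12, 8.63, against 8.57, 8.51 and 8.62 on the unstimulated wild-type arrays. The wild-type bead arrays lay above the unstimulated ones without overlap, by a margin smaller than the differences among the unstimulated arrays. Tgm2, the transglutaminase, read 9.51 and 9.62 on the knockout bead arrays, against 8.71 and 8.68 on the unstimulated knockout arrays (1.83-fold, log2 0.87 ± 0.17). In the wild type, bead arrays read 9.77, 9.79 and, on array 12, 9.22, against 9.60, 9.63 and 9.60 on the unstimulated wild-type arrays. For both genes the unstimulated knockout arrays were the lowest of all 10, and the knockout bead arrays lay closer to the wild-type signal. For Tgm2 they overlapped the wild-type bead arrays only through array 12 and were below the other wild-type bead arrays.

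Dmpk had higher values with beads in the wild-type line as well. It read 9.08 and 9.07 on the knockout bead arrays, against 8.35 and 8.11 on the unstimulated knockout arrays (1.79-fold, log2 0.84 ± 0.16). Wild-type bead arrays read 9.08, 8.84 and, on array 12, 8.59, against 8.38, 8.15 and 8.36 on the unstimulated wild-type arrays. In each line every bead array was above every unstimulated array, and the lines overlapped under each treatment.

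The 10 genes were not the 10 most extreme ones. Among positive bead differences in the knockout line they held ranks 1, 2, 6, 7, 13, 20 and 48 of 19938, and among negative ones ranks 1, 5 and 6. Between them stood Id3 (0.92 ± 0.22), Id2 (0.91 ± 0.22) and Nt5e (0.87 ± 0.17) on the high side and Tlr8 (-1.03 ± 0.24), Ms4a6b (-0.89 ± 0.21) and Maf (-0.86 ± 0.15) on the low side, named here after their values were seen. Without array 12, which is in neither knockout group but enters the estimate of the spread, 17 genes (0.0853%) passed for the knockout bead response, 0.0752% higher and 0.0100% lower. The 10 genes were chosen on this contrast, so which of them were among the 17 is no test of them and is not counted here. The differences themselves are the same in that fit.

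Whether these genes changed with beads in the wild-type line was tested on the difference between its own arrays, which had no part in the choice. The spread was estimated from all 10 arrays, the knockout ones included. This tests for a change in wild type and does not test whether it equals that in the knockout line. None of the 10 genes passed (limma, adjusted p = 1 for each), and 0% of all genes did, with 167 of 19938 at an unadjusted p under 0.05. The median wild-type difference of the 10 genes was 0.06, against 0.01 over all genes. The 10 genes were chosen in both directions, so this median cannot show whether the wild type followed the knockout. Dmpk had the largest difference of them, 0.54 ± 0.13 (1.46-fold, 3 arrays each), with an unadjusted p of 0.00272, the only one of the 10 under 0.05. Its SE was 0.15 in a fit of the wild-type arrays alone, in which no gene passed either. The other 9 ranged from -0.14 ± 0.09 in Gpr162 to 0.26 ± 0.21 in Olfml3. Their 95% intervals, not adjusted for the number of genes, were -0.23 to 0.35 for Jag1, -0.06 to 0.40 for Furin, -0.13 to 0.25 for Map2k3, -0.12 to 0.24 for Sdc1 and -0.33 to 0.30 for Tgm2. Those of Pde7b (-0.36 to 0.48), Gpr162 (-0.35 to 0.06) and Sesn1 (-0.53 to 0.27) spanned 0 as well, as did that of Olfml3 (-0.22 to 0.74), whereas that of Dmpk ran from 0.24 to 0.84. The wild-type bead arrays lay wholly above the unstimulated ones in Sdc1 and Dmpk, as in 2.29% of all genes, and wholly below in none of the 10 (1.24% of all genes).

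**Figure D2:**
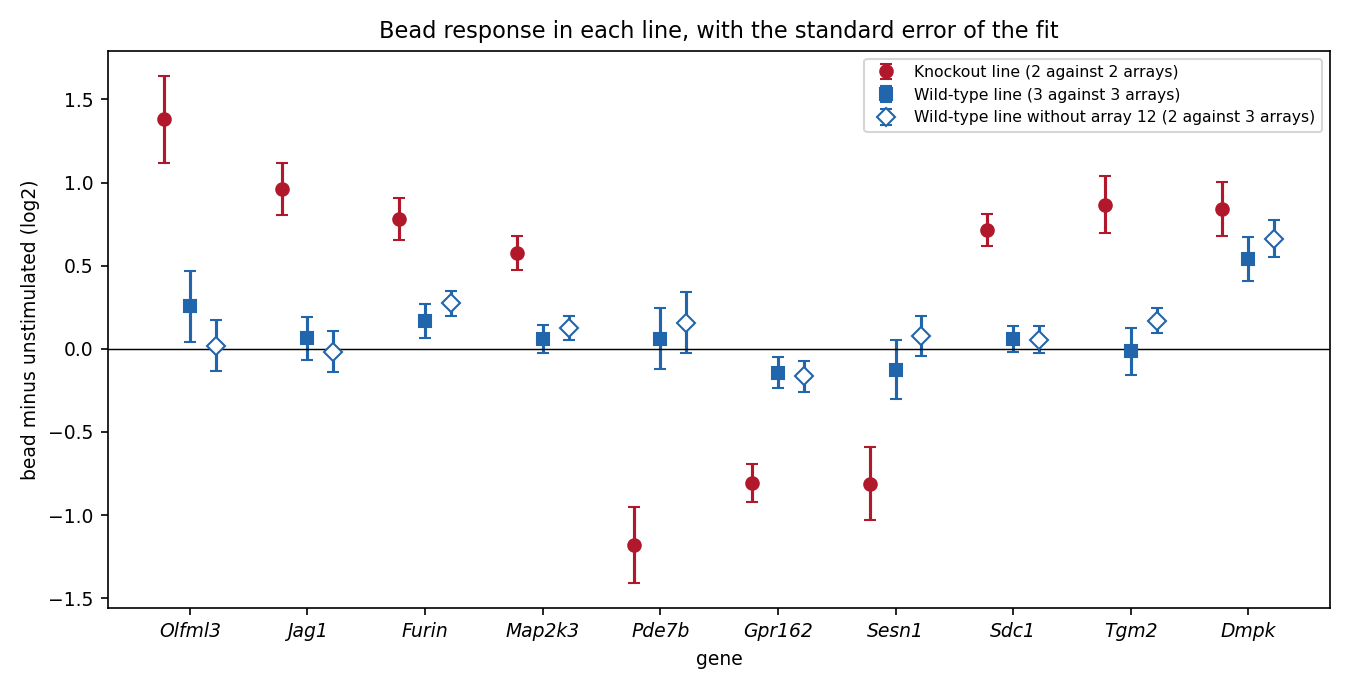
Bead minus unstimulated log2 signal (vertical axis) for each gene (horizontal axis) in the knockout line, the wild-type line and the wild-type line without array 12, with error bars of 1 SE from the fit. The knockout values, on which the genes were chosen, run from -1.18 to 1.38, while the wild-type values of all genes except Dmpk lie between -0.14 and 0.26 with all arrays and between -0.17 and 0.27 without array 12.

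Without array 12, again none of the 10 passed in the wild-type line, and again 0% of all genes did, although 2293 genes had an unadjusted p under 0.05. Dmpk was then at 0.66 ± 0.11 (1.58-fold, adjusted p = 0.154) and Furin at 0.27 ± 0.08 (adjusted p = 0.333). Tgm2 was at 0.17 ± 0.07 (adjusted p = 0.427) in place of -0.02 ± 0.14 with that array, and Olfml3 at 0.02 ± 0.15 in place of 0.26 ± 0.21. Sesn1 was at 0.08 ± 0.12 in place of -0.13 ± 0.18, Jag1 at -0.02 ± 0.12, Pde7b at 0.16 ± 0.18, Gpr162 at -0.17 ± 0.09, Sdc1 at 0.06 ± 0.08 and Map2k3 at 0.12 ± 0.07. The sign thus turned without array 12 in Sesn1, Tgm2 and Jag1, none of which passed either way. Intervals of Dmpk (0.42 to 0.91), Furin (0.10 to 0.44) and Tgm2 (0.00 to 0.33) then excluded 0 before adjustment. Furin, Sdc1, Tgm2, Dmpk and Map2k3 had both remaining bead arrays above all unstimulated wild-type arrays, which 18.1% of all genes did, and none of the 10 had both below (15.4% of all genes).

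**Figure D3:**
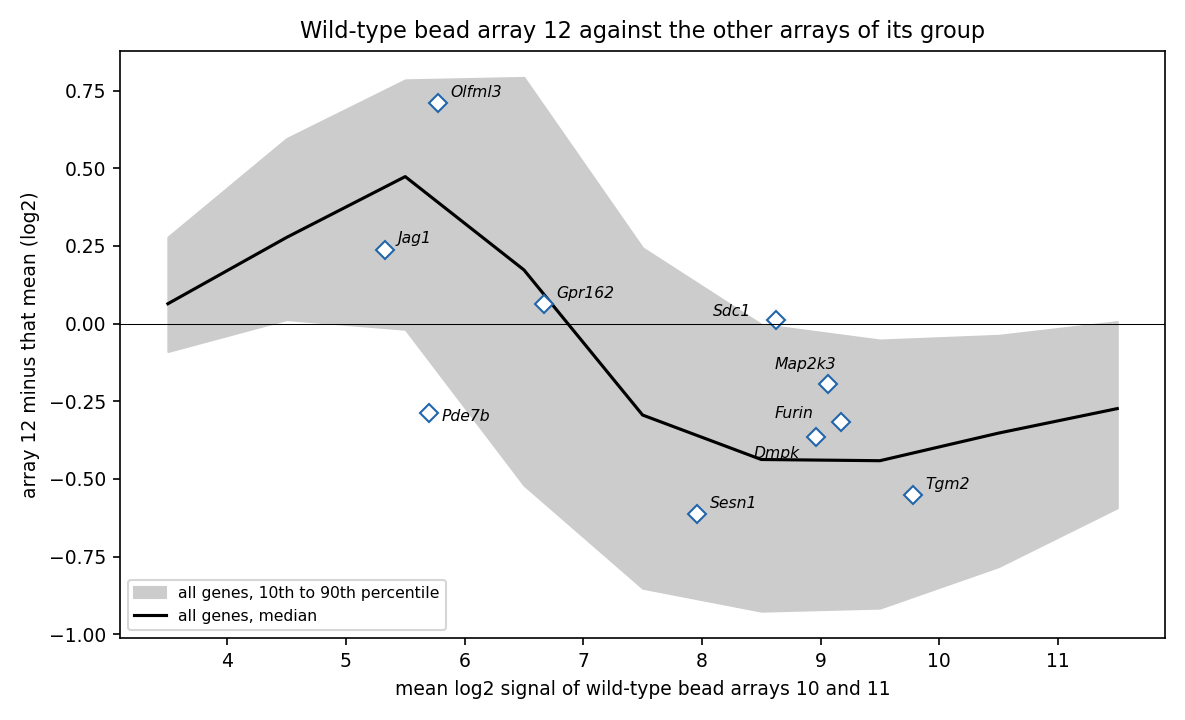
Difference between wild-type bead array 12 and the mean of the other arrays of its group (vertical axis, log2) against that mean (horizontal axis, log2 signal). Diamonds are the 10 genes, the line is the median and the grey band the 10th to 90th percentile of all genes in bins of 1 log2 unit, with 11 and above as 1 bin. Genes of signal 5 to 6 read higher on array 12 by a median of 0.47 and genes of signal 9 to 10 lower by a median of 0.44.

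The difference of array 12 from its group varied with signal level across all genes, and all of the 10 genes except Pde7b and Sdc1 lay on the same side of 0 as the median gene of their level, as the plot of array 12 against its group shows. Olfml3, a gene of low signal in wild type, read 0.71 above the other wild-type bead arrays, where the median gene of signal 5 to 6 was 0.47 above them. Furin (-0.32), Map2k3 (-0.19) and Tgm2 (-0.55) read lower, where the median gene of signal 9 to 10 was at -0.44. Pde7b went the other way from its level, at -0.29 and percentile 4.02 of the 3907 genes of signal 5 to 6, and Sdc1, at 0.01, was at percentile 90.6 of the 2488 genes of signal 8 to 9. What made array 12 differ was not tested.

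The knockout response minus the wild-type response contains the contrast on which the genes were chosen, so it is given as a value without a test. It was 1.12 ± 0.34 for Olfml3, 0.90 ± 0.20 for Jag1, 0.88 ± 0.22 for Tgm2, 0.65 ± 0.13 for Sdc1, 0.61 ± 0.16 for Furin and 0.52 ± 0.13 for Map2k3. It was -1.24 ± 0.29 for Pde7b, -0.68 ± 0.28 for Sesn1 and -0.66 ± 0.15 for Gpr162. Dmpk had the smallest value, 0.30 ± 0.21. Over all genes, 0% passed for this difference (limma), with 172 at an unadjusted p under 0.05. Without array 12 it was 1.36 ± 0.23 for Olfml3, -0.89 ± 0.18 for Sesn1 and 0.18 ± 0.16 for Dmpk, with the other 7 between -1.34 ± 0.27 in Pde7b and 0.98 ± 0.18 in Jag1, and 1 gene (0.00502%) passed, Cd72, which is not one of the 10.

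**Figure D4:**
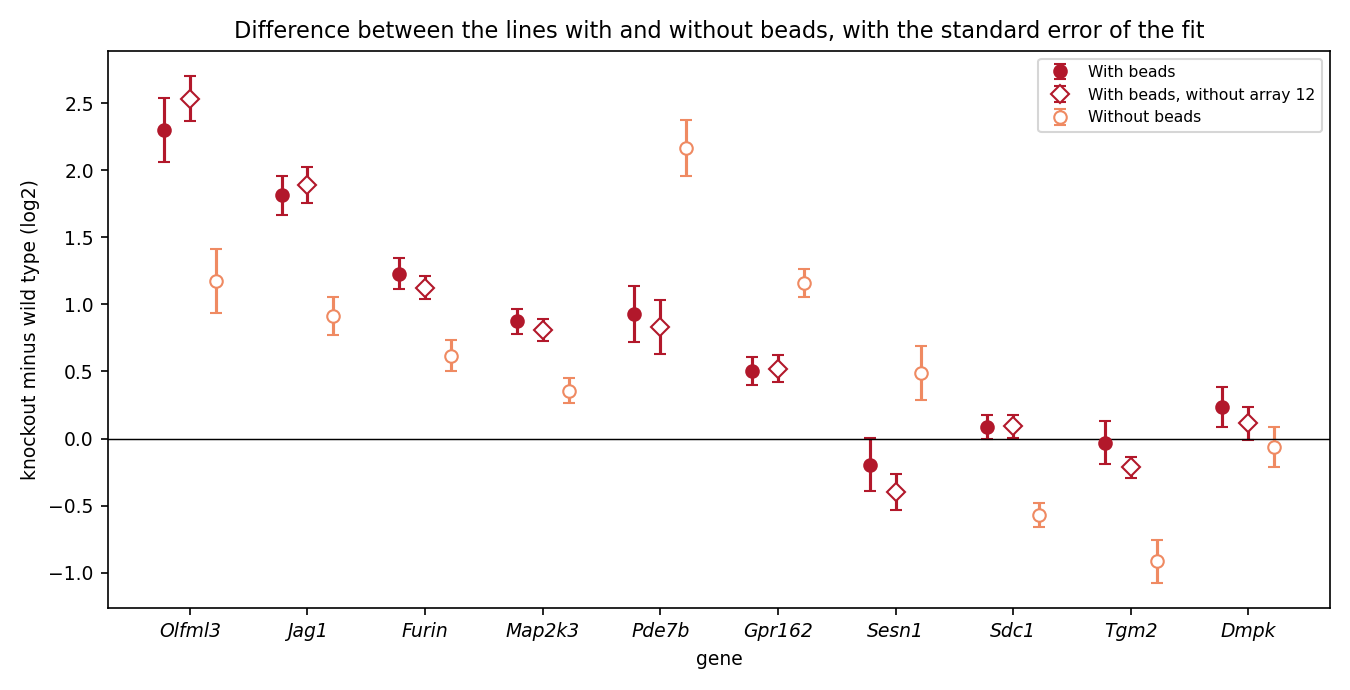
Knockout minus wild-type log2 signal (vertical axis) for each gene (horizontal axis) with beads, with beads but without array 12, and without beads, with error bars of 1 SE from the fit. The difference is larger with beads in Olfml3, Jag1, Furin and Map2k3 and smaller with beads in Pde7b and Gpr162. With beads it is 0.09 in Sdc1 and, in Tgm2, -0.03 with all arrays and -0.22 without array 12.

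Averaged over both treatments, the lines differed in most of these genes. The array-to-array error of this average is uncorrelated with that of the knockout bead difference, because both knockout groups have 2 arrays. The average was tested on all 10 arrays. It includes the knockout bead arrays, so a bead change in that line is part of it. In limma 8 of the 10 genes passed, 6 higher and 2 lower in the knockout line, where 15.0% of all genes passed, 6.68% higher and 8.34% lower. The fit takes its spread from all arrays, including the knockout arrays on which the genes were chosen. Such a choice can favour genes of low spread, and a low spread makes passing easier. The 8 of 10 beside 15.0% of all genes is therefore a description and no independent test. The adjusted p-values of this line difference share that limit. Olfml3 was 3.33-fold higher in the knockout line (log2 1.74 ± 0.17, adjusted p = 1.06e-04), higher on 4 of 4 knockout arrays than on any of the 6 wild-type arrays. Pde7b was 2.92-fold higher (1.55 ± 0.15, adjusted p = 9.09e-05) and Jag1 2.57-fold (1.36 ± 0.10, adjusted p = 1.92e-05). Furin (0.92 ± 0.08), Gpr162 (0.83 ± 0.07) and Map2k3 (0.61 ± 0.07) were higher as well, with adjusted p of 5.84e-05, 6.0e-05 and 2.13e-04. In all 6 of these genes no knockout array overlapped a wild-type array, which held for 7.32% of all genes in that direction and 7.88% in the other. Without array 12 it was again these 6, beside 9.24% of all genes, with 14.9% in the other direction.

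Tgm2 was lower in the knockout line by this average (-0.47 ± 0.11, adjusted p = 0.0191), and so was Sdc1 (-0.24 ± 0.06, adjusted p = 0.0299). In both the difference was larger in size in the unstimulated cells, as the plot of line differences shows. Tgm2 was at -0.03 ± 0.16 with beads (-0.22 ± 0.08 without array 12), against -0.91 ± 0.16 without, and Sdc1 at 0.09 ± 0.09 with beads (the same without array 12), against -0.57 ± 0.09 without. In Olfml3 the difference was 2.30 ± 0.24 with beads (2.53 ± 0.17 without array 12), against 1.17 ± 0.24 without, and in Pde7b 0.93 ± 0.21 with beads (0.83 ± 0.20 without array 12), against 2.17 ± 0.21 without. These values by treatment share their knockout arrays with the choice and carry no test. Without beads the knockout arrays lay wholly above the wild-type ones in 7 of the 10 genes (17.7% of all genes) and wholly below in Sdc1 and Tgm2 (21.1% of all genes). With beads they lay wholly above in 7 (11.3% of all genes), Sdc1 in place of Sesn1, and wholly below in none (12.3% of all genes). Leaving out array 12, the same 7 lay wholly above with beads (36.7% of all genes), and Tgm2 and Sesn1 lay wholly below (27.8% of all genes). For the line difference averaged over treatments, the calls of Tgm2 and Sdc1 were lost when certain single arrays were left out. For both genes these were either bead or either unstimulated knockout array (limma adjusted p = 0.0542 to 0.144). For Sdc1 they were also wild-type bead array 10 or 11 or unstimulated wild-type array 16 or 18 (0.0579 to 0.0873). Sesn1 (0.15 ± 0.14, adjusted p = 0.760) and Dmpk (0.09 ± 0.11, adjusted p = 0.865) did not pass. Without array 12 the same 8 genes passed, beside 29.0% of all genes, 11.0% higher and 17.9% lower, with Olfml3 at 1.85 ± 0.11 and Tgm2 at -0.56 ± 0.05 (adjusted p = 2.56e-05).

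Other genes of the pathways to which the 10 belong showed no bead response that passed in either line. Of 34 other Notch pathway genes, 24 of the p38 cascade, 26 of cyclic nucleotide turnover, 26 of heparan sulfate proteoglycans, 15 sestrins and p53 targets, 9 kinases related to Dmpk, 8 transglutaminases and relatives, 8 olfactomedin genes and 6 proprotein convertases, none passed for the knockout bead response, the wild-type bead response or their difference (limma). Of these 156 genes 7 had an unadjusted p under 0.05 for the knockout response (4.49%, against 1.80% of all genes), 3 for the wild-type response (1.92%, against 0.838%) and 4 for the difference (2.56%, against 0.863%). Without array 12 these were 15 (9.62%, against 4.56% of all genes), 18 (11.5%, against 11.5%) and 18 (11.5%, against 4.90%). List medians in the knockout bead response ran from -0.07 for sestrins and p53 targets to 0.04 for heparan sulfate proteoglycans, against 0.00 over all genes. Without array 12, Dusp1, the phosphatase that switches off p38, passed as the only one of these genes (0.71 ± 0.10, adjusted p = 0.0357).

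For the line difference averaged over treatments, 39 of the 156 genes passed (25%), against 15.0% of all genes, and without array 12 61 passed (39.1%), against 29.0% of all genes. The share over all genes is the background for each list below, and nothing particular to a list is read from its count. In the Notch list 4 were higher and 3 lower in the knockout line, among them the receptor Notch2 (0.76 ± 0.13), the gamma-secretase subunit Aph1a (0.58 ± 0.07) and the Notch-modifying glycosyltransferase Lfng (-0.74 ± 0.09), with a list median of 0.03. In the p38 list 4 were higher and 3 lower (median -0.10), led by Dusp1 (2.59 ± 0.11), Gadd45b (0.98 ± 0.07) and the upstream kinase Map3k5 (0.90 ± 0.12). Without array 12 these became 5 higher and 11 lower. Of the cyclic nucleotide genes 6 were higher and none lower (median 0.05), with the phosphodiesterases Pde3b (1.75 ± 0.13) and Pde1b (0.79 ± 0.08) and the protein kinase A subunit Prkacb (0.53 ± 0.09) first. The median over all genes was 0.00 in this comparison.

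Of the heparan sulfate genes 5 were higher and 2 lower (median 0.08). The syndecans Sdc3 (1.45 ± 0.09) and Sdc4 (0.77 ± 0.07) and the xylosyltransferase Xylt1 (0.92 ± 0.09), which starts the sugar chains, were higher, while Sdc1, as above, was at -0.24 ± 0.06. Sestrin and p53 genes were higher in 4 and lower in 3 (median 0.03), among them Plk2 (1.40 ± 0.19), Phlda3 (-0.92 ± 0.07) and Zmat3 (-0.68 ± 0.13). Of the Dmpk relatives Lats2 (1.14 ± 0.14) and Cdc42bpb (0.48 ± 0.09) were higher and Cit (-0.77 ± 0.08) lower (median 0.08). F13a1, the A subunit of coagulation factor XIII and a transglutaminase like Tgm2, was the 1 gene of its list that passed, at -2.79 ± 0.15 (median 0.00). Olfm1 was the 1 olfactomedin gene, at 2.35 ± 0.09 (median 0.04). No other proprotein convertase passed (median 0.07). Without array 12 the counts of the cyclic nucleotide list were 8 higher and 2 lower, of the heparan sulfate list 8 and 2, of the Dmpk relatives 3 and 2, and Pcsk1 passed among the convertases (0.21 ± 0.07, adjusted p = 0.0383).

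For each of the 10 genes the 3 genes of most similar signal were taken by Pearson r over the 10 arrays. Since the lines fall apart, a line difference that genes share can raise such an r, and it is given as a description. It did not make every r high. Olfml3, Jag1 and Gpr162 were all higher in the knockout line, and r was 0.986 for Olfml3 with Jag1 but 0.48 for Olfml3 with Gpr162. Furin and Map2k3 were each other's first match (r = 0.993), followed in both cases by Il1rn, the interleukin-1 receptor antagonist (0.986 with Furin, 0.984 with Map2k3), and by the integrin Itga5 for Furin (0.986) and the tropomyosin Tpm1 for Map2k3 (0.976). The growth factor Vegfc was first for Olfml3 (0.991), ahead of Jag1 (0.986) and Arhgap27 (0.972), and for Jag1 Gdpd5 was first (0.989) and the serotonin receptor Htr2b followed Olfml3 (0.985). Pde7b matched the cytokine Il15 (0.991), H2-T24 (0.981) and the interleukin-10 receptor chain Il10ra (0.968), and Il10ra was also second for Gpr162 (0.965), behind Dgka (0.968) and ahead of St6gal1 (0.955). Sesn1 matched the RNA sensor Tlr8 best (0.959), then Lrrc25 (0.958) and Kctd12b (0.941). Lrp8 was among the first 3 for both Sdc1 (0.926, beside Slc20a1 at 0.930 and Rai14 at 0.914) and Tgm2 (0.954, beside Dock5 at 0.962 and Srsf3 at 0.952). Dmpk matched the transcription regulator Id3 best (0.928), then Tgfbi (0.900) and Slc7a8 (0.894). Id3 was itself higher with beads in both lines, by 0.92 ± 0.22 in the knockout and 0.90 ± 0.18 in the wild type. With all arrays no gene passed in limma for either bead response, Id3 included.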

How the data were processed

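Biotin-labelled cDNA, prepared from 100 ng of total RNA, was read on 10 Affymetrix arrays. The deposited table holds log2 signal per probe set, made with RMA by the authors (per the submitters' processing notes). The method corrects background, equalises probe distributions over arrays and summarises probes. Its version and a joint run of all arrays are not stated. The scale was taken from the values, and array medians of 5.75 to 6.10 show that the table is not centred on a common median.

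Of 28853 probe sets, 21789 had 1 gene symbol, 1621 several and 5443 none in the platform annotation. Symbols were updated by Entrez ID for 21698. Per gene the probe set of highest mean was kept, giving 19938 genes, none filtered. Group means were fitted with limma 3.58.1 in R 4.3.3 (6 residual and 3.23 prior degrees of freedom), two-sided, with Benjamini-Hochberg adjustment over all genes and a threshold of 0.05. Fitting was tested on simulated data. The number of arrays limits the precision.

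The 10 genes, the pathway lists and the tests were chosen with earlier results of these data known. Named are the 10 genes, per list and comparison up to 3 other genes with the largest change among those that passed, the 3 genes most alike to each of the 10, Tlr9 and Clec7a. The alternatives left out single arrays or changed the groups fitted, the scaling, the prior, the weights, the filter on low signal or the probe sets used.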

Additional observations from a re-analysis of the deposited data

How the results depend on the processing

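No paired analysis was possible because no replicate number in the labels is common to several groups. The 10 arrays limit what could be detected, and with no detection calls a low signal has no stated floor. Under the 18 alternatives no gene passed for the wild-type bead response, except with array weights, where 9174 of 19938 did. That estimation of weights stopped before it converged and gave wild-type bead array 11 a weight of 12.1 and array 12 one of 0.0701. Under it 16 genes passed for the knockout bead response, 9 for the difference between the responses and 6758 for the line difference, and in the wild-type line Dmpk (0.50, adjusted p = 3.22e-04), Furin (0.23, 0.00145) and Map2k3 (0.11, 0.0289) passed and Tgm2 changed sign to 0.18 (0.00481). With single arrays left out, the knockout bead response passed in 0 to 17 genes, the difference between responses in 0 to 1, and the line difference in 2033 to 5774, against 2994 with all arrays; the highest count of each was without array 12. Centring on the median gave 1621 for the line difference, with Tgm2 (-0.51, adjusted p = 0.142) and Sdc1 (-0.28, 0.113) no longer passing. Sdc1 was also lost after quantile normalization (-0.19, 0.212) and with a trended prior (-0.24, 0.0646). The line differences of Olfml3, Jag1, Pde7b, Gpr162, Furin and Map2k3 passed under all alternatives run for them, with adjusted p up to 0.0158. Jag1 fell outside the filter on a mean log2 signal of at least 6 and has no value there. A fit of the wild-type arrays alone left the wild-type values as they were and passed no gene. The line difference was not fitted on fewer groups, as it uses all 4.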
